A study of Mus musculus with 28 samples.

Results

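A set of 36 genes that serve blastocyst cavity formation, apical-basal polarity and cell-cell junctions was followed through single mouse embryos of a study of CTCF, a zinc-finger protein that binds DNA and shapes chromatin loops. The genes were taken from a written list, by symbol, and not by their measured values. All 36 had a row in the blastocyst table and 34 in the morula table, so that 34 of the 14332 genes present in both tables were members. The water channel gene Aqp8 and the desmosome gene Dsc2 had no row for morulae. Levels are given as reads per 1000000 (CPM), and differences as log2 fold changes on the log2(CPM + 1) scale, which understates the change of low genes. A difference was called when its p-value, from limma's moderated test adjusted by the Benjamini-Hochberg method over every gene tested, was under 0.05.

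RNA was sequenced from 27 whole embryos of the CD1 strain, each 1 library. The blastocysts were 3 WT_flfl, 4 het, 4 M_KO and 3 MZ_KO embryos, and the morulae were 3 het, 4 del and 6 MZKO embryos. These genotype names are given as the labels spell them, and neither their meaning, the driver of the deletion, nor the stretch of Ctcf removed is given in the sources used here. The sample titles carry a prefix, which is C7 for MZ_KO and M_KO, N89 for the WT_flfl and het embryos of the blastocyst stage, N2 for del and for het at the morula stage, and C50 for MZKO. Comparisons of MZ_KO with M_KO, of blastocyst het with WT_flfl and of del with het therefore lie within 1 prefix, and in the others prefix and genotype cannot be told apart. The 14 blastocysts analysed belong to sequencing batch 1 and the 13 morulae to batch 2, so stage and batch cannot be told apart. A further blastocyst het library, labelled as batch 2, was not analysed here. The deposited data are named E2.5 for the morulae and E3.5 for the blastocysts. Mothers and calendar days of collection are not labelled, and p-values measure the spread between these embryos alone.

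A blastocyst cavity forms once the outer cells of the morula become a sealed epithelium. The sodium-potassium pump drives ions inward, water follows through aquaporins, and tight junctions hold the fluid in. E-cadherin and its catenins join the cells, the PAR proteins with atypical protein kinase C and CDC42 set apart the outward-facing surface, desmosomes anchor keratin filaments, and ezrin, radixin and moesin tie the membrane to cortical actin.

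Read totals ran from 7377302 to 27883060 in blastocysts and from 12136606 to 20414013 in morulae other than del 6, which had 1635553. Ctcf averaged 3.62 ± 0.660 CPM in MZ_KO blastocysts (SD, n = 3), 4.33 ± 3.60 CPM in MZKO (n = 6) and 2.30 ± 2.68 CPM in del morulae (n = 4), and between 38.6 CPM in het morulae and 95.1 CPM in WT_flfl blastocysts in the other groups. Markers of the tissue were present: each of 7 trophectoderm and 7 inner cell mass markers had reads in every blastocyst group. The summed trophectoderm markers (Cdx2, Gata3, Krt8, Krt18, Eomes, Elf5 and Tfap2c) reached 3731 to 4917 CPM in MZ_KO, 5345 to 9188 in M_KO, 4576 to 7332 in het and 6937 to 7188 in WT_flfl, so MZ_KO lay below WT_flfl and M_KO and overlapped het. That sum is carried by the keratins: in MZ_KO 2, Krt8 and Krt18 held 1536 and 1616 of 3731 CPM. Singly, Krt8, Krt18, Eomes and Elf5 in MZ_KO lay below WT_flfl, and Cdx2, Gata3 and Tfap2c overlapped it. Summed inner cell mass markers reached 900 to 1068 CPM in MZ_KO, 782 to 921 in M_KO, 527 to 1031 in het and 642 to 844 in WT_flfl. This sum joins genes that moved apart. Nanog in MZ_KO lay above WT_flfl, Sox17 and Gata4 lay below it, and Pou5f1, Sox2, Gata6 and Pdgfra overlapped it. Each library is a whole embryo, and fewer cells of a type cannot be told apart from less RNA per cell. The part of these lineage markers in the member results was not tested.

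Among morulae, the libraries of MZKO 1 and het 1 stood apart. Of 7 oviduct epithelium markers, all of which had reads, the sum was 2286 CPM in MZKO 1 and 1363 CPM in het 1, against 6.29 to 363 CPM in the other 11 morulae. The same embryos had the highest sums of blood markers among morulae, 2490 and 8981 CPM. Among blastocysts, WT_flfl 1 and het 6 had 18072 and 17837 CPM of blood markers. Their oviduct marker sums, 170 and 564 CPM, were also the highest, against 13.2 to 141 CPM in the other blastocysts. The part of that RNA in member levels was not tested. Calls of members that change when either pair is left out are given with and without it.

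In blastocysts, 10 members differed between MZ_KO and at least 1 other group. Lower in MZ_KO than in WT_flfl, het and M_KO alike were the cortex genes Ezr and Msn, the pump subunit Atp1b1, the water channel Aqp8 and the adherens junction gene Ctnna1. For Aqp8, MZ_KO 7 overlapped WT_flfl, and limma with voom weights called the gene in none of the 3 comparisons. Cdh1 and Marveld3 were lower than in WT_flfl and het, and Pard3 was lower than in het. Higher in MZ_KO were Aqp3, against het, and Cldn7, against het and M_KO. These 3 comparisons share the same 3 MZ_KO embryos, so their counts are not independent of each other.

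Against WT_flfl 0 of 35 tested members rose and 7 fell, where 4.84% of all 9585 genes tested rose and 8.36% fell. Against het 2 rose and 8 fell, beside 7.02% and 10.8% of all genes, and against M_KO 1 rose and 5 fell, beside 3.74% and 8.09%. The median log2 fold change of the tested members was −0.33, −0.28 and −0.15 in these comparisons, where the median of all genes was −0.05, −0.06 and −0.03. As a share of the tested members, the called ones came to 20%, 28.6% and 17.1%, where 13.2%, 17.9% and 11.8% of all genes were called in either direction. These counts include Aqp8 and Marveld3, which were under 10 CPM in every MZ_KO embryo and were tested only because the other groups are high. Without these genes 5, 6 and 4 members fell against WT_flfl, het and M_KO. How many of all genes would fall under the same restriction is not reported here, so these counts lack a background. Aqp11, the remaining member, was under the filter of 10 CPM in at least 3 embryos. Without MZ_KO 2, without WT_flfl 1 or without WT_flfl 7 the count against WT_flfl was 4, and it was also 4 without WT_flfl 1 and het 6 together. Leaving out that pair ended the calls of Aqp8, Cdh1 and Marveld3 against WT_flfl (adjusted p = 0.105, 0.120 and 0.135) and of Cdh1 and Marveld3 against het (0.0534 and 0.110). Fewer of all genes, too, were called against WT_flfl without WT_flfl 7. Shares of all genes called in these runs are not reported here, so the counts of 4 lack a background.

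The windows around the transcription starts of the genes called lower against all other blastocyst groups are shown so that the letters behind the group can be read beside its values. Each runs from 250 bases before to 50 after the start in RefSeq (GRCm38.p6), 5′ to 3′ on the gene's strand. Capitals mark a match to 1 of 3 motifs searched on both strands: GGAATG, bound by TEAD factors of the trophectoderm, GCCNNNGGC, bound by AP-2 factors, and the core of the CTCF motif, CCNNNAG directly followed by NNGGC. Ezr lies at chr17:6782731-6783030 (minus strand), Msn at chrX:96095795-96096094 (plus), Atp1b1 at chr1:164458306-164458605 (minus) and Aqp8 at chr7:123462044-123462343 (plus). Ctnna1 is named only.
Ezr: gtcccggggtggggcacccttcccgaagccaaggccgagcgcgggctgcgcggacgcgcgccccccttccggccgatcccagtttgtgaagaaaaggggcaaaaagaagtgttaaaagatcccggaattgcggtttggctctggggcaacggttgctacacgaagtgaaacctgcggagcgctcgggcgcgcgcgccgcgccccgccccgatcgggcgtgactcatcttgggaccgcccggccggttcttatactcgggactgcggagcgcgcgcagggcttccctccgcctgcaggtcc
Msn: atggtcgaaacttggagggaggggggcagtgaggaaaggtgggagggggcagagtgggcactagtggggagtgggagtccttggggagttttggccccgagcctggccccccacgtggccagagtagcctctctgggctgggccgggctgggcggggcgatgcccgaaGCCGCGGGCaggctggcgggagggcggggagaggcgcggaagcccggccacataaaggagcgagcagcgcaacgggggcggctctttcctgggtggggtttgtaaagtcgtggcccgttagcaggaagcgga
Atp1b1: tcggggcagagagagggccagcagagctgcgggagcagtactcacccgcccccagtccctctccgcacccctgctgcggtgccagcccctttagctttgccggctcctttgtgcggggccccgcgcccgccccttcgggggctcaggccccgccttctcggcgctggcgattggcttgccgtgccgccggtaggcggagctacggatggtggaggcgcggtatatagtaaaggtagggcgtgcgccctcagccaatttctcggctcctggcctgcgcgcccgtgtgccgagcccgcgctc
Aqp8: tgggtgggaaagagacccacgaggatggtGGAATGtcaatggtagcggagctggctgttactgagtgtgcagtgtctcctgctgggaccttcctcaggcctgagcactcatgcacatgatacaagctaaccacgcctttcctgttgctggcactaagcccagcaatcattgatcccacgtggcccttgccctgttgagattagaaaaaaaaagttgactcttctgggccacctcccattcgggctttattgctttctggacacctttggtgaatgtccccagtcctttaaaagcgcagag
The Msn window holds GCCNNNGGC at bases 169 to 177, a palindrome read on both strands, and the Aqp8 window holds GGAATG at bases 30 to 35. The windows of Ezr and Atp1b1 hold none of the 3 motifs. RefSeq windows were matched for 29 of the 36 members, 42 windows in all. The CTCF core was in 3 of these (7.14%; Jup, Ocln and Pard3), beside 8.61% of all 32851 windows. GGAATG was in 4 (9.52%; Aqp8, Cldn6, Cldn7 and Prkci), beside 14.7% of all. GCCNNNGGC was in 16 (38.1%), beside 16.6% of all, and the median GC content was 60.8% in the members' windows and 52.7% in all. These are matches of letters in this window and were not tested for binding.

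**Figure D1:**
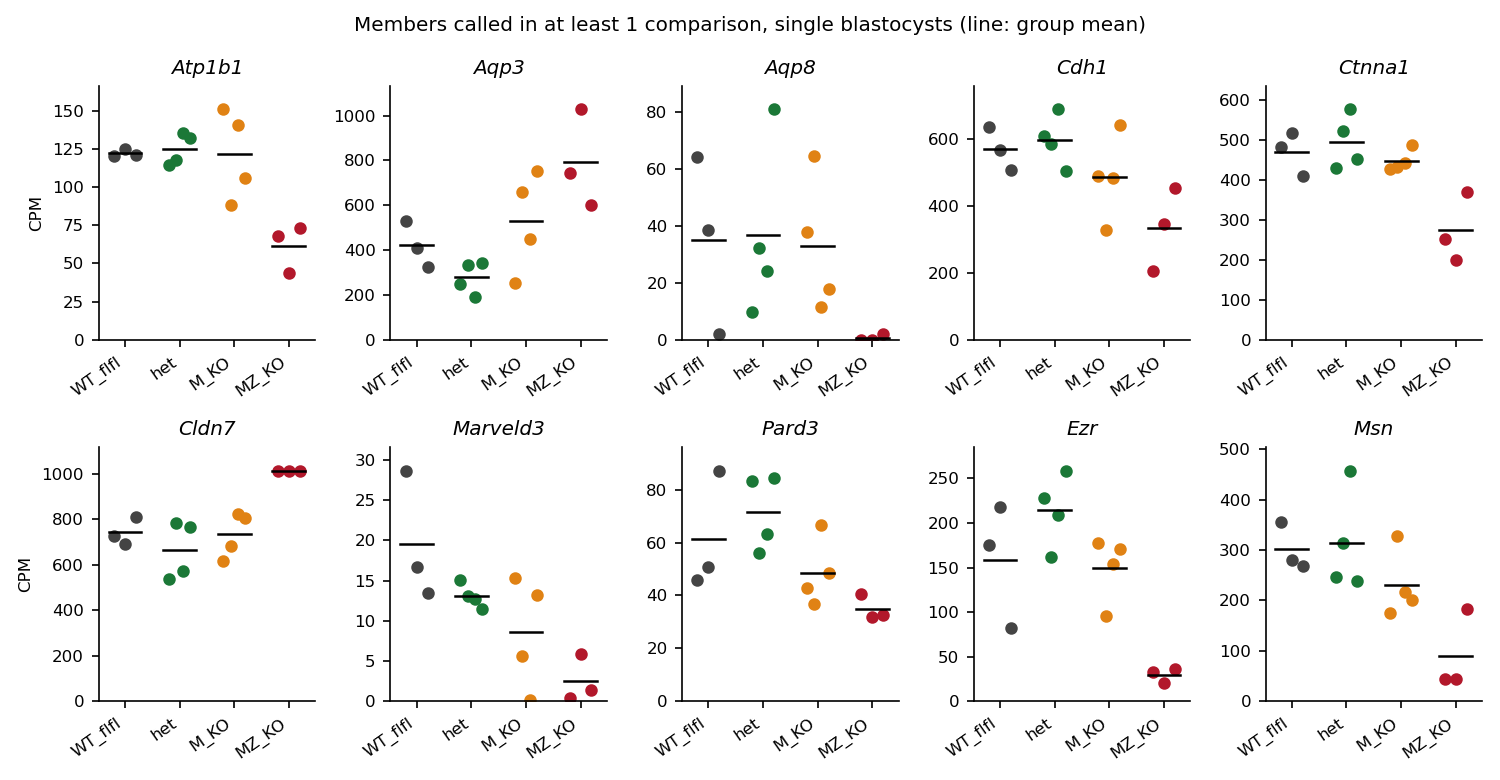
CPM of the 10 called members in each blastocyst (points, colored by group; black line, group mean; linear axis from 0). The MZ_KO points of Ezr, Atp1b1 and Ctnna1 lie below every other embryo, and those of Cldn7 lie between 1013 and 1015, above every other embryo.

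Among the cortex genes, Ezr and Msn fell and Rdx and Rhoa did not pass the test. Values of single blastocysts are listed in the order MZ_KO 2, 6 and 7, then WT_flfl 1, 7 and 9, then het 3, 5, 6 and 8, then M_KO 1, 3, 4 and 5. Ezr (ENSMUSG00000052397, chromosome 17, 6738041 to 6782784) encodes ezrin, the membrane-actin linker of the apical surface and its microvilli. It stood at 32.6, 20.7 and 36.3 CPM in MZ_KO, 175, 218 and 81.9 in WT_flfl, 227, 162, 209 and 259 in het and 177, 95.3, 154 and 170.3 in M_KO. Every MZ_KO embryo was below every embryo of the other groups, and the nearest were WT_flfl 9 and M_KO 3. The log2 fold change of Ezr was −2.29 (SE 0.33, adjusted p = 2.62e-04) against WT_flfl, −2.82 (SE 0.30, adjusted p = 1.64e-05) against het and −2.28 (SE 0.30, adjusted p = 1.45e-04) against M_KO, and the call held in every alternative run.

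Msn (ENSMUSG00000031207, chromosome X, 96096042 to 96168552) encodes moesin, the relative of ezrin found along the whole membrane of many cells. Its levels were 44.1, 44.7 and 183 CPM in MZ_KO, 355, 279.9 and 269 in WT_flfl, 247, 314, 458 and 239 in het and 176, 329, 217 and 200.2 in M_KO. MZ_KO 7 stood apart from MZ_KO 2 and 6 and overlapped M_KO, while WT_flfl and het did not overlap MZ_KO. Msn fell by 2.05 (SE 0.41, adjusted p = 0.00368) against WT_flfl, 2.07 (SE 0.38, adjusted p = 0.00177) against het and 1.64 (SE 0.38, adjusted p = 0.0114) against M_KO on the log2 scale. Against M_KO the call was lost without MZ_KO 2 or without MZ_KO 6 (adjusted p = 0.0678 and 0.0606).

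Rdx, which encodes radixin, the third protein of that family, stood at 29, 36.1 and 102 CPM in MZ_KO, with log2 fold changes of 0.18, −0.15 and −0.18 against WT_flfl, het and M_KO (adjusted p = 0.823, 0.829 and 0.814). MZ_KO 7 and M_KO 1 were high and the groups overlapped. Rhoa, a small GTPase that drives contraction of cortical actomyosin, averaged 353 ± 35.3 CPM in MZ_KO and 353 ± 41.6 in WT_flfl (SD, n = 3 each). Its log2 difference was 0.00 with a 95% interval of −0.31 to 0.31, and the SD of Rhoa within groups, 0.16 on the log2 scale, was the next smallest of the tested members after Epcam.

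Of the pump and water channel genes, 5 of 6 were tested. Atp1b1 and Aqp8 fell against all 3 groups, Aqp3 rose against het, and Atp1b3 and Aqp9 did not pass. Atp1b1 (ENSMUSG00000026576, chromosome 1, 164437109 to 164458355) encodes a beta subunit of the sodium-potassium pump, needed for its assembly and delivery to the membrane. Its values were 68, 43.9 and 73.3 CPM in MZ_KO, 121, 125 and 121 in WT_flfl, 115, 118, 136 and 132 in het and 151, 88.7, 141 and 106 in M_KO. The groups did not overlap, and the nearest embryo to MZ_KO was M_KO 3. Log2 fold changes were −1.01 (SE 0.22, adjusted p = 0.00706) against WT_flfl, −1.04 (SE 0.21, adjusted p = 0.00290) against het and −0.97 (SE 0.21, adjusted p = 0.00641) against M_KO, and each call held in every alternative run. Of the exons of Atp1b1 18.7% overlap Nme7 on the opposite strand, and the library kit does not mark strand, so reads there cannot be told apart. Atp1b3, another beta subunit, averaged 175 ± 27.3 CPM in MZ_KO and 168 ± 25 in WT_flfl (SD, n = 3 each), a log2 difference of 0.06 with a 95% interval of −0.35 to 0.47.

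Aqp3 (ENSMUSG00000028435, chromosome 4, 41092722 to 41098183) encodes an aquaglyceroporin, which passes water and glycerol. It stood at 742, 1029 and 601 CPM in MZ_KO, 531, 407 and 326 in WT_flfl, 249, 335, 189.9 and 343 in het and 251, 660.0, 449.7 and 751 in M_KO. MZ_KO was above every WT_flfl and het embryo and overlapped M_KO, whose values spread widely. Aqp3 rose against het (log2 fold change 1.501, SE 0.31, adjusted p = 0.00396) and did not pass against WT_flfl (0.90, adjusted p = 0.0861) or M_KO (0.66, adjusted p = 0.188). Fitted on MZ_KO and WT_flfl alone, it passed against WT_flfl too (adjusted p = 0.0275).

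Aqp8 (ENSMUSG00000030762, chromosome 7, 123462291 to 123468004) encodes a channel for water and hydrogen peroxide. Its values were 0, 0.0459 and 2.17 CPM in MZ_KO, 64.2, 38.4 and 2.01 in WT_flfl, 9.80, 32.2, 24.1 and 80.9 in het and 37.7, 64.3, 11.5 and 17.6 in M_KO. MZ_KO lay below het and M_KO, and MZ_KO 7 overlapped WT_flfl 9, while the other embryos spread over a wide range. Aqp8 passed the filter through the groups where it is high, and its fitted log2 fold changes of −3.73, −4.30 and −4.21 depend on the pseudocount. Limma called it in each comparison (adjusted p = 0.0179, 0.00409 and 0.00648), and limma with voom weights on the recovered reads called it in none (adjusted p = 0.661, 0.591 and 0.658). Leaving out WT_flfl 1 or 7 also ended the call against WT_flfl (adjusted p = 0.0884 and 0.0788), as did leaving out MZ_KO 2 or 6 (0.0641 and 0.0554).

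Aqp9, another aquaglyceroporin, averaged 65 ± 16.6 CPM in MZ_KO and 85.9 ± 6.37 CPM in WT_flfl (SD, n = 3 each), with log2 fold changes of −0.43, −0.40 and −0.43 against WT_flfl, het and M_KO (adjusted p = 0.371, 0.344 and 0.339). Aqp11, a channel of intracellular membranes, was low throughout. It stood at 1.71, 0.0918 and 1.51 CPM in MZ_KO and 10.9, 3.46 and 6.32 in WT_flfl and was not tested in blastocysts.

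Of 6 adherens junction members, Cdh1 and Ctnna1 fell, and Ctnnb1, Ctnnd1, Jup and Epcam did not pass. Cdh1 (ENSMUSG00000000303, chromosome 8, 106603351 to 106670246) encodes E-cadherin, the adhesion protein of compaction. It stood at 205, 345 and 451 CPM in MZ_KO, 634, 566 and 507 in WT_flfl, 608, 585, 688 and 502 in het and 489.7, 326, 481 and 641 in M_KO. MZ_KO 2 was the lowest embryo, MZ_KO lay below WT_flfl and het, and it overlapped M_KO. Cdh1 fell against WT_flfl (log2 fold change −0.84, SE 0.25, adjusted p = 0.0367) and het (log2 fold change −0.90, SE 0.23, adjusted p = 0.0147) and did not pass against M_KO (−0.57, adjusted p = 0.129), where it did pass without MZ_KO 7 or without M_KO 3 (adjusted p = 0.0396 and 0.0417). The call against WT_flfl was lost without any 1 of the WT_flfl embryos 1, 7 and 9 (adjusted p = 0.111, 0.0895 and 0.0575) and without MZ_KO 2 or 6 (0.175 and 0.0604), and that against het without MZ_KO 2 (0.0947) and without WT_flfl 1 and het 6 together (0.0534).

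Ctnna1 (ENSMUSG00000037815) encodes alpha-catenin, which links the cadherin complex to actin. Its values were 252, 199 and 370.1 CPM in MZ_KO, 482, 519 and 409 in WT_flfl, 430.3, 522, 578 and 454 in het and 426, 433, 444 and 487 in M_KO. Every MZ_KO embryo was below every other embryo, MZ_KO 7 being the nearest to them. Ctnna1 fell with log2 fold changes of −0.82 (SE 0.19, adjusted p = 0.00882) against WT_flfl, −0.89 (SE 0.18, adjusted p = 0.00260) against het and −0.75 (SE 0.18, adjusted p = 0.0113) against M_KO, and the last call was lost without MZ_KO 6 (adjusted p = 0.0646).

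Epcam, an adhesion protein of epithelia, was the member with the highest level per kilobase of exon in het blastocysts, 717 CPM per kilobase, ahead of Cdc42 with 364 and Cldn7 with 342. In CPM it stood at 1209, 1190.4 and 1498 in MZ_KO, 1669, 1573 and 1715 in WT_flfl, 1428, 1830.5, 1443 and 1594 in het and 1527, 1944, 1632 and 1684 in M_KO. MZ_KO lay below WT_flfl and M_KO and overlapped het. Its log2 fold changes of −0.35, −0.28 and −0.39 against WT_flfl, het and M_KO did not pass (adjusted p = 0.0862, 0.134 and 0.0517). Without MZ_KO 7 it passed against WT_flfl and M_KO (adjusted p = 0.0421 and 0.0264), and with voom weights against M_KO (0.0442).

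Beta-catenin (Ctnnb1), which also carries Wnt signals, averaged 241 ± 22.5 CPM in MZ_KO (SD, n = 3). Its MZ_KO values lay below those of every WT_flfl and het embryo and overlapped M_KO. Its log2 fold changes were −0.34, −0.40 and −0.20 against WT_flfl, het and M_KO (adjusted p = 0.219, 0.105 and 0.481). For Ctnnd1, the p120 catenin that keeps cadherin at the membrane, they were −0.33, −0.47 and −0.14, and for Jup, plakoglobin, shared by adherens junctions and desmosomes, −0.58, −0.45 and −0.20, with adjusted p-values of at least 0.163 for both. Jup in MZ_KO lay below WT_flfl and overlapped het and M_KO, and Ctnnd1 overlapped every group. The gene model Gm28635 overlaps 61.2% of the exons of Ctnnd1 on the same strand, and Ulk4 overlaps 14.6% of those of Ctnnb1 on the other, so these values are uncertain by what was assigned to the neighbor.

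Of 10 tight junction members, Marveld3 fell, Cldn7 rose and 8 did not pass in any comparison of MZ_KO. Cldn7 (ENSMUSG00000018569, chromosome 11, 69964779 to 69967885) encodes a claudin, a strand protein of epithelial junctions. Its values were 1015, 1013 and 1013 CPM in MZ_KO, 729, 692 and 811 in WT_flfl, 537, 784, 573 and 768 in het and 618, 685, 825 and 808 in M_KO. Every MZ_KO embryo was above every other embryo, and MZ_KO varied least. Cldn7 rose against het (log2 fold change 0.63, SE 0.15, adjusted p = 0.00832) and M_KO (log2 fold change 0.48, SE 0.15, adjusted p = 0.0464) and did not pass against WT_flfl (0.45, adjusted p = 0.0718). Against WT_flfl it passed when embryos were centred on their medians or when only those groups were fitted (adjusted p = 0.0362 and 0.0422). Against M_KO the call was lost without MZ_KO 2, MZ_KO 6, MZ_KO 7, M_KO 1 or M_KO 3 (adjusted p = 0.112, 0.108, 0.0956, 0.130 and 0.0830).

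Marveld3 (ENSMUSG00000001672, chromosome 8, 109947914 to 109962203), which encodes a membrane protein of tight junctions related to occludin, stood at 0.458, 5.83 and 1.36 CPM in MZ_KO, 28.7, 16.7 and 13.4 in WT_flfl, 15.1, 13.1, 12.7 and 11.5 in het and 15.3, 5.61, 0.125 and 13.2 in M_KO. MZ_KO lay below WT_flfl and het and overlapped M_KO, where M_KO 4 was near 0. Marveld3 passed the filter through the other groups. Limma called it lower against WT_flfl (log2 fold change −2.78, SE 0.82, adjusted p = 0.0340) and het (log2 fold change −2.29, SE 0.77, adjusted p = 0.0485), and the log2 fold change against M_KO was −1.17 (adjusted p = 0.354). The first call was lost without MZ_KO 2, MZ_KO 7 or any 1 of the 3 WT_flfl embryos (adjusted p from 0.0592 to 0.127), and the second without MZ_KO 2, MZ_KO 7 or any 1 of the 4 het embryos (0.0690 to 0.187). Voom weights lost both (adjusted p = 0.153 and 0.211), and without M_KO 4 the gene passed against M_KO (0.0426).

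The other tight junction members gave wide intervals around small differences. Against WT_flfl the log2 fold change was 0.09 (−0.58 to 0.76) for Tjp1, the scaffold ZO-1, and −0.45 (−1.10 to 0.20) for Tjp3, the related ZO-3, with 95% intervals in parentheses. It was −0.12 (−0.72 to 0.47) for occludin, Ocln, and 0.17 (−0.29 to 0.62) for cingulin, Cgn, a cytoplasmic plaque protein. The claudins Cldn4 and Cldn6 gave −0.21 (−0.88 to 0.45) and −0.29 (−0.97 to 0.39). The adhesion molecule JAM-A, F11r, gave 0.02 (−0.43 to 0.47), and tricellulin, Marveld2, which seals the points where 3 cells meet, gave −0.03 (−1.11 to 1.05).

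Of 5 polarity members 1 fell, in 1 comparison. Pard3 (ENSMUSG00000025812, chromosome 8, 127063893 to 127612286) encodes the scaffold PAR3 of the apical complex. It stood at 40.4, 32 and 32.5 CPM in MZ_KO, 45.9, 50.7 and 87.2 in WT_flfl, 83.2, 56.2, 63.2 and 84.4 in het and 42.7, 36.7, 66.5 and 48.6 in M_KO. MZ_KO lay below WT_flfl and het and overlapped M_KO. Pard3 fell against het (log2 fold change −1.003, SE 0.26, adjusted p = 0.0147) and did not pass against WT_flfl (−0.74, adjusted p = 0.0900) or M_KO (−0.44, adjusted p = 0.308), and the call against het was lost without MZ_KO 6 (adjusted p = 0.05, just past the threshold). Prkci, the atypical protein kinase C iota, averaged 71.6 ± 32.3 CPM in MZ_KO (SD, n = 3), and its log2 fold change against het was −0.72 (adjusted p = 0.0886), which passed without MZ_KO 6 (0.0349). Prkcz, its zeta relative, Pard6b, the adaptor between kinase and CDC42, and Cdc42 itself, the GTPase of polarity, gave 0.00 (−0.42 to 0.43), −0.15 (−0.76 to 0.47) and −0.02 (−0.33 to 0.29) against het, with 95% intervals in parentheses.

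No desmosome member was called in blastocysts by limma, where 2, 3 and 2 of 5 had an unadjusted p under 0.05 against WT_flfl, het and M_KO, beside 28.7%, 31.9% and 26.5% of all genes. Dsc2, the desmosomal cadherin desmocollin 2, was nearest. Its values were 10.3, 46 and 36.2 CPM in MZ_KO, 63.6, 88 and 107 in WT_flfl, 64.1, 120.0, 104 and 36.5 in het and 88.1, 118, 128 and 31.7 in M_KO. MZ_KO lay below WT_flfl and overlapped het 8 and M_KO 5. The log2 fold changes of Dsc2 were −1.66, −1.46 and −1.59 (adjusted p = 0.0577, 0.0600 and 0.0548), and it passed in all 3 comparisons without MZ_KO 6 (0.0387, 0.0398 and 0.0388), against het without het 8 (0.0274) and against M_KO without M_KO 5 (0.0147).

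Dsp encodes desmoplakin, which ties desmosomes to keratin. It stood at 58.4, 83.1 and 79.9 CPM in MZ_KO and 34.1, 47.5, 43.9 and 37.1 in het, which did not overlap, with a log2 fold change of 0.84 (adjusted p = 0.0662). It passed with voom weights, with embryos centred on their medians and with those groups fitted alone (adjusted p = 0.0405, 0.0370 and 0.0365). Dsg2, the partner desmoglein, gave −0.79 against WT_flfl (adjusted p = 0.0908) and passed there without MZ_KO 7 (0.0419). Pkp2, plakophilin 2, gave −0.57 and Perp, a tetraspan membrane protein of desmosomes, −0.07 against WT_flfl (adjusted p = 0.292 and 0.888).

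**Figure D2:**
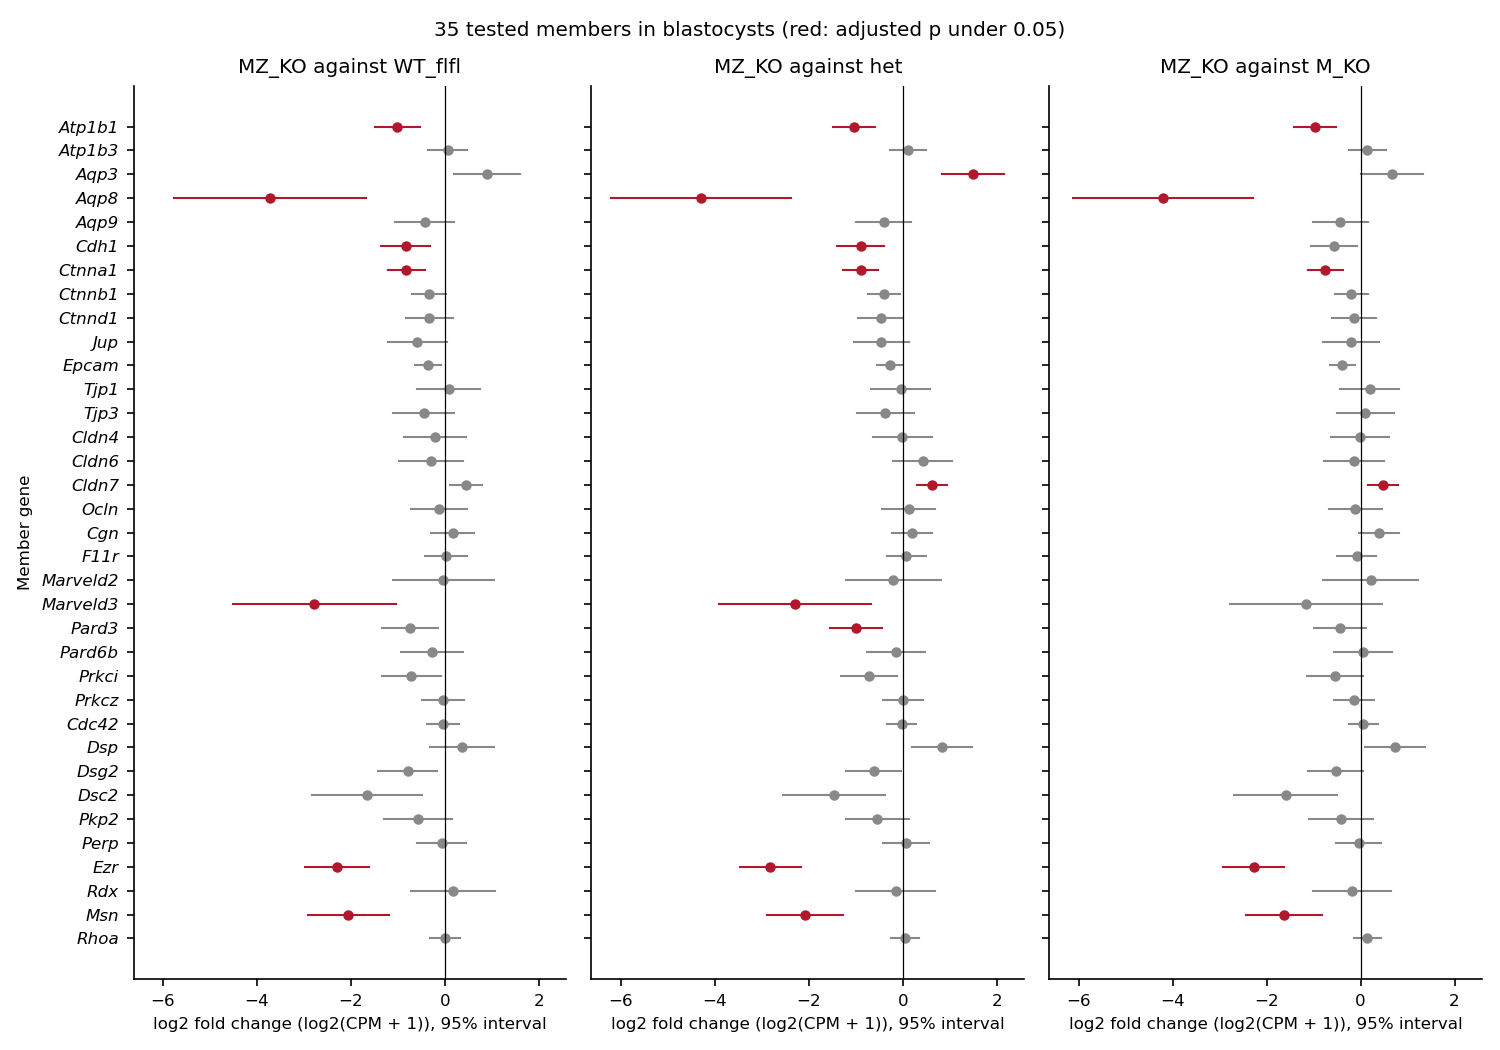
Log2 fold change of the 35 tested members in MZ_KO against WT_flfl, het and M_KO blastocysts, on the log2(CPM + 1) scale, with 95% intervals (lines) and calls in red. Ezr, Msn, Atp1b1, Ctnna1 and Aqp8 are red and left of 0 in every panel, and Aqp8 has the widest interval.

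The remaining blastocyst groups gave no calls. Of the 35 tested members limma called 0 between M_KO and WT_flfl, 0 between M_KO and het and 0 between het and WT_flfl, where 0% of all genes were called in each. At an unadjusted p under 0.05 the counts were 0, 2 and 1, beside 5.15%, 6.66% and 1.95% of all genes, and voom weights gave 0 in each. Between M_KO and WT_flfl the signs of the fold changes were 7 positive and 28 negative, with a median of −0.14, where the median of all genes was −0.01. The intervals limit what these groups could show: for Ezr, the log2 fold change of M_KO against WT_flfl was −0.01 with a 95% interval of −0.66 to 0.63, and for Atp1b1 it was −0.04, with −0.48 to 0.40.

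Other genes of the epithelial program were read from a second list of 54, of which 41 were tested in blastocysts. Against WT_flfl 1 rose and 5 fell. Nectin2, an adhesion protein of adherens junctions, rose (log2 fold change 0.49, SE 0.15, adjusted p = 0.0359). Myh10, a nonmuscle myosin heavy chain, averaged 157 ± 57.7 CPM in MZ_KO and 376 ± 72.4 in WT_flfl (SD, n = 3 each) and fell (log2 fold change −1.31, SE 0.24, adjusted p = 0.00241), and Slc9a3r1, the scaffold NHERF1 that binds ezrin, fell too, with means of 121 ± 9.11 and 271 ± 9.16 CPM (log2 fold change −1.16, SE 0.21, adjusted p = 0.00197). Cgnl1, paracingulin, fell (log2 fold change −1.41, SE 0.35, adjusted p = 0.0136), as did Krt8, a simple-epithelium keratin that is also among the trophectoderm markers (log2 fold change −0.87, SE 0.21, adjusted p = 0.0103). Against het 2 rose and 5 fell, and against M_KO 2 rose and 3 fell. The called genes came to 14.6%, 17.1% and 12.2% of the list, near the 13.2%, 17.9% and 11.8% of all genes. The median log2 fold change of the list was −0.23, −0.26 and −0.13 against WT_flfl, het and M_KO, where that of all genes was −0.05, −0.06 and −0.03.

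In morulae no member was called. Limma called 0 of 34 members between MZKO and het, 0 between MZKO and del and 0 between del and het, where 0.482%, 0.181% and 0.01% of all 9953 genes tested were called. At an unadjusted p under 0.05 the members counted 6, 2 and 2, beside 8.66%, 8.25% and 5.05% of all genes, and voom weights called 0 in each. The median log2 fold change of the members was 0.15 between MZKO and het, where that of all genes was −0.02. Of the second list 0 of 39 tested genes were called in each comparison by limma or with voom weights, and 5, 1 and 3 had an unadjusted p under 0.05.

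The members nearest to a call between MZKO and het were Marveld2, Atp1b3 and Epcam. For Marveld2 (chromosome 13, 100595957 to 100616971), the lowest, median and highest of the 6 MZKO morulae were 27.7, 37.3 and 58.1 CPM, against 6.97, 12.3 and 11.6 CPM in het 1, 5 and 7 and 32.9, 19.1, 14.8 and 17.4 in del 2, 3, 4 and 6. MZKO and del each lay above het and overlapped each other. Its log2 fold change was 1.85 (SE 0.43, adjusted p = 0.0623), it passed without MZKO 1 (adjusted p = 0.0473), and it did not without MZKO 1 and het 1 together (0.119).

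For Atp1b3 (chromosome 9, 96332655 to 96364442) the lowest, median and highest MZKO morulae were 147, 219 and 316 CPM, against 98.9, 139 and 88.2 in het and 187, 166, 148 and 137 in del. MZKO lay above het and overlapped del. The log2 fold change was 1.05 (SE 0.27, adjusted p = 0.122), past the threshold without MZKO 1 (0.0335) and not past it without MZKO 1 and het 1 together (0.0805).

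Epcam (chromosome 17, 87635979 to 87651129) went the other way, with 15.4, 22.8 and 57.8 CPM as the lowest, median and highest MZKO morulae, 42.5, 127 and 252 in het and 31.1, 44.2, 56.1 and 12.2 in del. Het 5 and het 7 were above every other morula, and het 1 lay among the rest. The log2 fold change of Epcam was −2.07 between MZKO and het (adjusted p = 0.143) and −1.79 between del and het (adjusted p = 0.716). Without het 1 it passed between MZKO and het (adjusted p = 0.0319), as it did without MZKO 1 and het 1 together (−2.98, SE 0.54, adjusted p = 0.0130), where 0.591% of 9142 genes were called. In both runs het 5 and het 7 were the only het morulae. The summed trophectoderm markers, among which Elf5 did not have a row for morulae, reached 752 to 1272 CPM in het morulae, 237 to 723 in del and 325 to 1126 in MZKO. By this sum only MZKO 1 overlapped het, and there Krt8 and Krt18 held 547 and 477 of 1126 CPM. Singly, Cdx2, Gata3, Eomes and Tfap2c in MZKO 1 lay below every het morula. The part of the trophectoderm markers in the Epcam values was not tested.

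The desmosome genes Pkp2 and Perp had lower means in MZKO than in het. Pkp2 stood at 1.64, 7.99 and 25.2 CPM as the lowest, median and highest MZKO morulae and at 31.9, 26.3 and 36.6 in het, which did not overlap (−1.90, adjusted p = 0.592). Perp gave −0.95 (adjusted p = 0.408) and the claudin Cldn4 −0.88 against het and −1.21 against del (adjusted p = 0.400 and 0.195).

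Several epithelial members were high in the same single morulae that carried the most oviduct marker RNA. Ezr stood at 323 CPM in MZKO 1 and 296 in het 1, and between 8.51 and 56.2 in the other 11 morulae. Rdx stood at 167 and 222 CPM in those embryos and between 2.39 and 66.4 in the others. Atp1b1 stood at 60.4 and 91.7 CPM, and between 2.13 and 28.2 in the others. Both embryos were thus the highest of all morulae for Ezr, Rdx and Atp1b1. They were also the highest for Ctnnb1, at 426 and 327 CPM against at most 294 in the others, and for Aqp11, at 29 and 31.8 CPM against at most 22.8. Msn was highest in het 1, at 55.4 CPM, and Dsg2 and Dsp in MZKO 1, at 39.3 and 135 CPM. Such cortex and junction genes are common to epithelia, and the part of that RNA in their levels was not tested. Other members of the list went the other way in MZKO 1 and het 1. Cldn7 stood at 202 and 213 CPM there, Cdc42 at 409 and 453 and Perp at 54.4 and 81.0. Each of these values was the lowest of its group. Within groups of morulae the SD on the log2 scale was largest for Msn (1.98), Dsg2 (1.83) and Rdx (1.66) and smallest for Rhoa (0.28), Cdc42 (0.30) and Cdh1 (0.31), and the median of all genes tested was 0.69.

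**Figure D3:**
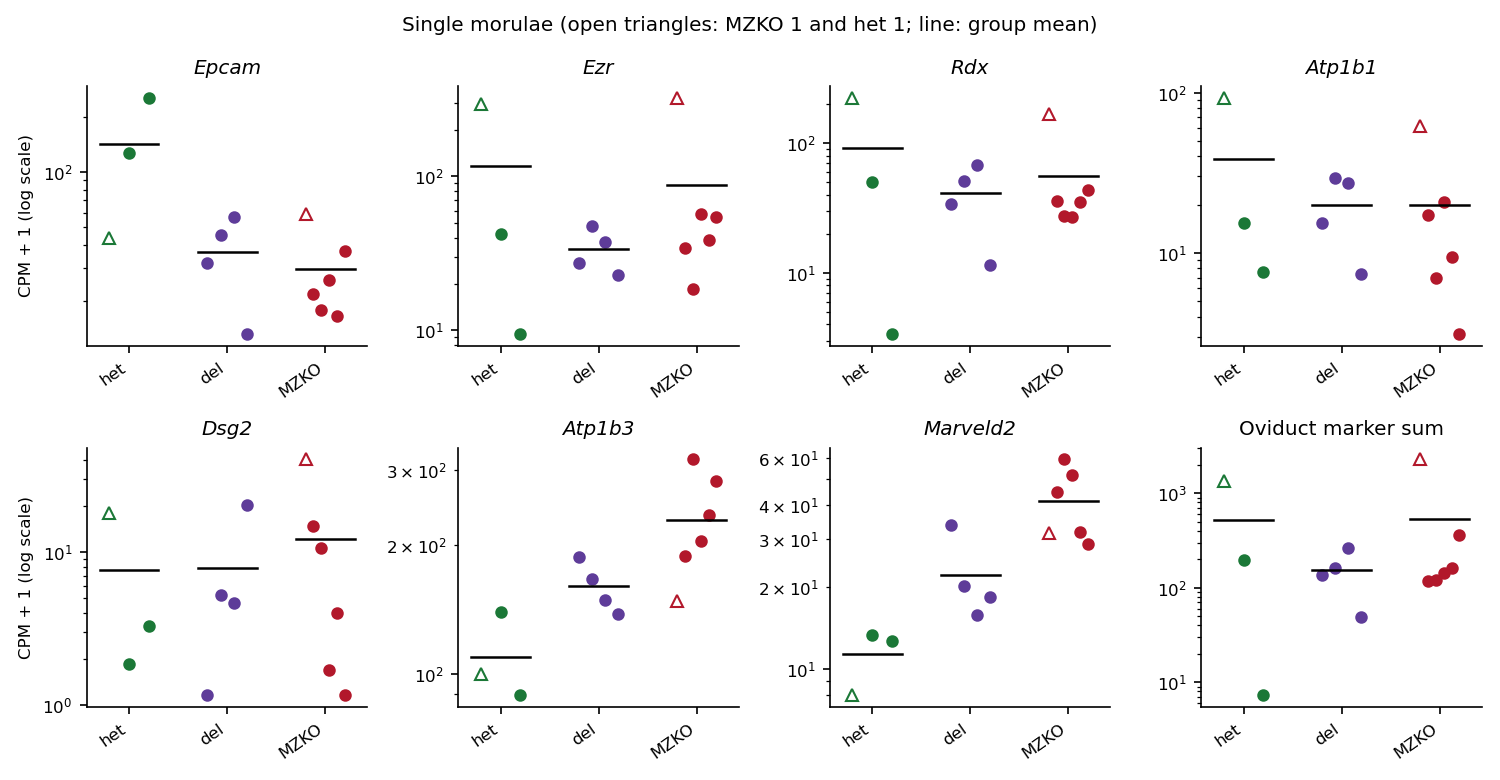
CPM + 1 (log axis) of 7 members and the summed oviduct markers in single morulae (points; open triangles, MZKO 1 and het 1; line, group mean). The triangles are the top points for Ezr, Rdx, Atp1b1 and the oviduct sum, while for Marveld2 and Atp1b3 MZKO lies above het with or without them.

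The effect of the knockout was compared between stages as the difference of the log2 fold changes of MZ_KO against het in blastocysts and MZKO against het in morulae, over the 8572 genes past the filter at both stages. Of the 33 members tested, limma called 0, where 1.61% of all genes were called, and voom weights called 0. At an unadjusted p under 0.05 the members counted 9, beside 17.7% of all genes. Marveld3 came nearest, with −4.37 (SE 1.23, adjusted p = 0.0622), followed by Cdh1 with −1.16 (SE 0.35, adjusted p = 0.0784). Marveld3 was under 10 CPM in every MZ_KO blastocyst and, at 0.112 and 4.67 CPM, in het morulae 5 and 7. The size of its difference therefore depends on the pseudocount. The difference for Ezr was −2.96 (SE 1.02, adjusted p = 0.120).

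Morulae MZKO 1 and het 1 were then left out together, chosen for their oviduct markers after seeing the data. Het 5 and het 7 were the only het morulae in that run. There 6 members were called, where 9.1% of 8244 genes were. Of the 33 members tested with all morulae, Dsg2 did not pass the filter in this run. Ezr (log2 fold change −3.74, SE 0.64, adjusted p = 0.00128), Marveld3 (−5.02, adjusted p = 0.0189), Ctnnb1 (−1.27, adjusted p = 0.00727), Cdh1 (−1.22, adjusted p = 0.0369) and Atp1b3 (−0.99, adjusted p = 0.0461) were lower in the blastocyst effect than in the morula effect, and Epcam was higher (log2 fold change 2.70, SE 0.49, adjusted p = 0.00223). The Marveld3 value again depends on the pseudocount, with 0.112 and 4.67 CPM in the het morulae used. Leaving out het 1 alone, which kept the same het morulae, gave 6 as well, with Perp (1.42, adjusted p = 0.0446) called and Atp1b3 not. Leaving out blastocyst MZ_KO 7, morula MZKO 2, MZKO 4 or MZKO 8 alone gave 1 each. The shares of all genes called in these runs with 1 embryo left out are not reported here, so their counts lack a background. For Ezr, the log2 fold change against het was −2.82 in blastocysts and 0.92 (95% interval −0.32 to 2.16) in morulae without those embryos, beside 0.14 (−1.61 to 1.89) with them. For Epcam it was −0.28 in blastocysts and −2.98 in morulae without them.

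**Figure D4:**
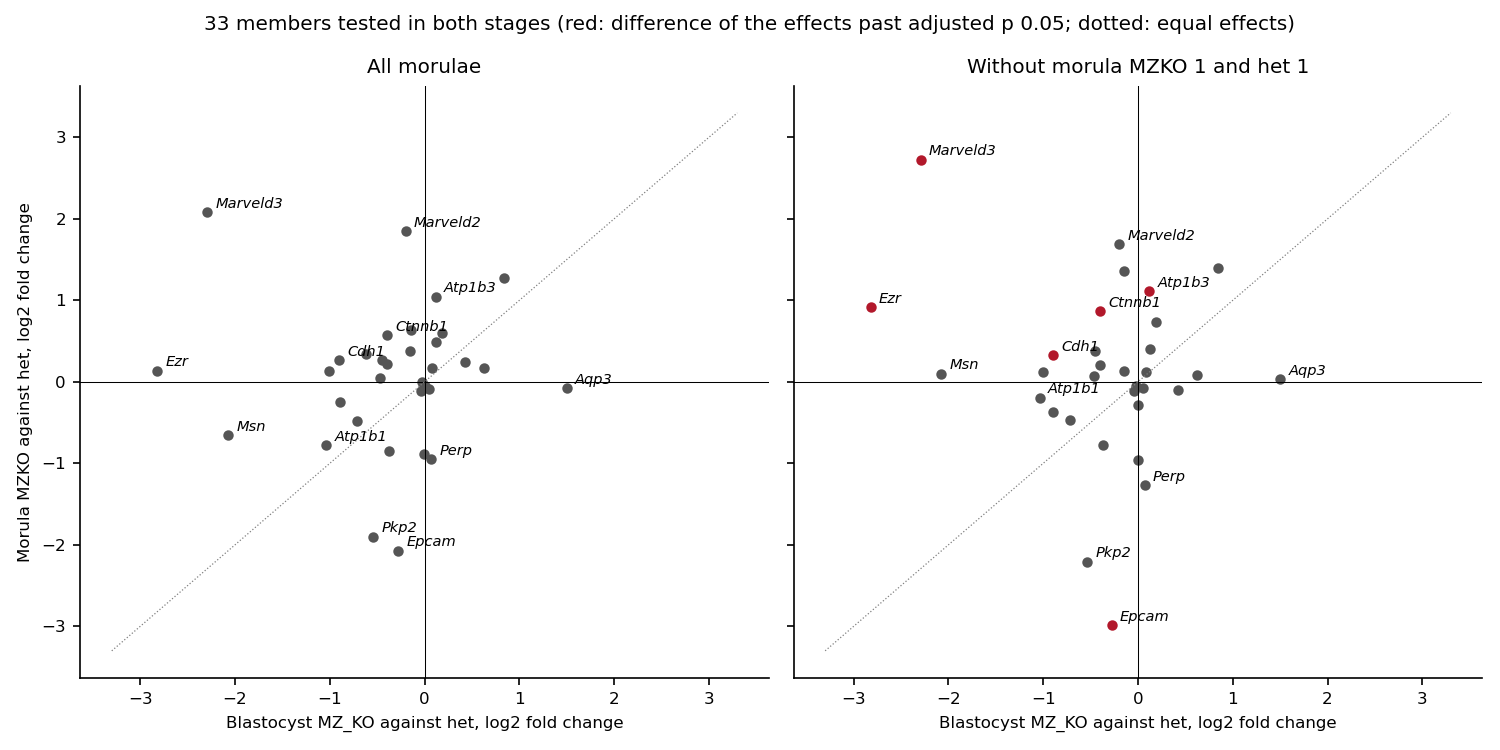
Log2 fold change of members in blastocyst MZ_KO against het (x axis) and morula MZKO against het (y axis). All 33 are shown with all morulae, and all but Dsg2 without MZKO 1 and het 1. Red marks a called difference of the effects and the dotted line equal effects. No point is red with all morulae and 6 are red without that pair, with Ezr and Marveld3 far left of the line and Epcam below it. The place of Marveld3, low in MZ_KO blastocysts and het morulae, depends on the pseudocount.

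The tables of the 2 stages were scaled separately and batch follows stage, so levels are set side by side without a test. In het embryos the mean of Epcam was 140.4 CPM in morulae and 1574 CPM in blastocysts, that of Msn 23.7 and 315, that of Dsg2 6.65 and 109.6, that of Prkci 18.4 and 111, and that of Atp1b1 37.5 and 125. The morula means of Msn, Dsg2 and Atp1b1 include het 1, the highest of its group for each. Other members had lower means in het blastocysts than in het morulae. In morulae and blastocysts these were 384.8 and 279.5 CPM for Aqp3, 160 and 106.3 for Ctnnd1 and 85.73 and 49.6 for Ocln. For Tjp1 they were 68.75 and 36.65 and for Rhoa 411.8 and 341.1. Rdx and Aqp11 were lower too, with het 1 the highest het morula for each, and Cgn was nearly equal. Per kilobase of exon, Aqp3 led in het morulae with 210.4 CPM, ahead of Cdc42 with 184 and Cldn7 with 156, and Dsg2 was the lowest of the 34 with 0.805. In het blastocysts the lowest of the 36 was Aqp11, with 0.707 CPM per kilobase.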

How the data were processed

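Per the labels' protocols, cDNA of each embryo was made with SMART-Seq (ultra low input) and read on an Illumina HiSeq 2500. The submitters' processing notes list RSEM 1.3.1, Bowtie2 2.2.9, cutadapt 1.14, GRCm38 and mm10. Roles, order, scaling method and use of strand are not given in the sources used here. Log2 values were deposited by the authors, in a separate table for each stage. Per the values, each is the log2 of reads plus an offset of 0.5 per 1000000 of a scaled library size, and undoing this gave whole reads for 100% of values within 0.01 reads. The design had assumed linear normalized values, so CPM was first recovered. Of 28 labelled samples 27 had a column, and the blastocyst het library labelled as the repeat of het 3 was not analysed here. No column belonged to other samples. Pairs of embryos in a group differed beyond counting noise (the lowest chi-square was 36.9 times its degrees of freedom).

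The filter asked for 10 CPM or more in 3 or more embryos and left 9585 genes in blastocysts and 9953 in morulae. limma 3.58.1 in R 4.3.3 was fitted to log2(CPM + 1) with a trended variance, all groups of a stage in 1 fit, two-sided, with Benjamini-Hochberg adjustment and a threshold of 0.05. The script was tested on simulated data. Alternatives were a pseudocount of 5, no filter, voom weights, centring on embryo medians, the compared groups alone, each embryo left out and a replicate block. Leaving out WT_flfl 1 with het 6, and morula MZKO 1 with het 1, was added after seeing the data. The 36 members, the second list and the markers were chosen with earlier results of these data known. Every member was to be named, with every embryo's value for those called, and of the second list up to 6 genes with the largest called change, of which 1 is not reported here by name. Positions and exon lengths are from GENCODE M21 (GRCm38), and figures were drawn with matplotlib 3.10.9 in Python 3.11.15.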

Additional observations from a re-analysis of the deposited data

Results flagged for a closer look

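Among 140 sets of embryos (a member in a group of 4 or more), 10 held an embryo far from the rest, its gap to the nearest exceeding Dixon's 95% limit. That is 7.14%. Chance alone flags about 1 in 20 where values are normally distributed and sets are independent. The values here are CPM without a log, and members share embryos, so that rate is only a rough guide. Of these, 5 were in morula MZKO 1, the morula with the highest sum of oviduct markers. In CPM, MZKO 1 stood high for Ezr at 322.8 (others 17.67 to 56.16), Rdx at 166.6 (25.96 to 42.49), Dsp at 134.9 (13.29 to 41.84), Atp1b1 at 60.39 (2.128 to 19.77) and Dsg2 at 39.28 (0.1576 to 13.70). Morula MZKO 8 stood low for Ctnna1 at 105.0 CPM (196.3 to 250.6). Morula del 6, the library with the fewest reads, stood low for Jup at 37.74 CPM (110.0 to 120.3). Blastocyst M_KO 5 stood high for Jup at 84.95 CPM (57.07 to 59.88) and low for Tjp1 at 21.68 CPM (32.33 to 34.26). Blastocyst het 8 stood high for Marveld2 at 49.01 CPM (16.89 to 19.33).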

How the results depend on the processing

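For the 23 called values of single members, 286 alternative values were computed, of which 238 kept the call, 48 lost it and 0 changed sign. The 12 that held in every alternative run were Ezr and Atp1b1 in all 3 comparisons, Msn and Ctnna1 against WT_flfl and het, and Aqp3 and Cldn7 against het. Calls that ended with no embryo left out and are not given above were Cdh1 against WT_flfl (adjusted p = 0.0596 with no filter, 0.0527 with centring and 0.0524 with those groups alone), Marveld3 with no filter (0.0503 against WT_flfl, 0.0681 against het) and with centring (0.0567 against het), Cldn7 against M_KO with no filter (0.0646) and Aqp8 against WT_flfl with those groups alone (0.0542). The count of members called in MZ_KO against WT_flfl, 7, ranged from 4 to 8 with 1 embryo left out and was 4 without WT_flfl 1 and het 6. The morula count of MZKO against het, 0, ranged from 0 to 2 and was 1 without MZKO 1 and het 1. The count for the difference between stages, 0, ranged from 0 to 6 and was 6 without that pair. The cause was not tested. The counts against het and M_KO ranged from 8 to 11 and from 4 to 7 with 1 embryo left out. Among all genes, the 1265 called against WT_flfl became 783 without WT_flfl 7. The 1711 called against het became 1058 at the lowest with 1 embryo left out and 1011 without WT_flfl 1 and het 6. The 1133 called against M_KO became 711 at the lowest. Embryo medians of the genes tested were 5.24 to 5.31 on the log2 scale in MZ_KO and 5.33 to 5.42 in the other blastocysts. Shared embryo numbers did not pair embryos (correlations of −0.14 and −0.12 between M_KO and het, and −0.12 to 0.14 between MZKO and del), and a fit with the replicate block called 0 members in M_KO against het and 0 in MZKO against del, with 5 and 21 of all genes. The same embryos without the block gave 1 and 18 genes. Groups of 3 or 4 embryos and, in morulae, a wide spread limit what could be called, and a missed threshold does not show that levels were equal.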
